A study of Mus musculus with 8 samples.

Results

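Nlrc5 and 9 genes of antigen presentation by major histocompatibility complex (MHC) class I molecules were followed in sympathetic ganglia whose noradrenergic cells lack the motor protein KIF1B beta. The members are Nlrc5, B2m, H2-K1, H2-D1, Tap1, Tap2, Tapbp, Psmb8, Psmb9 and Psmb10, 10 of the 23827 genes counted. The set was chosen by the lower Nlrc5 counts in the knockout, so the values of Nlrc5 describe that choice and carry no test here. The other 9 were taken for their place in the pathway, and their values come from the contrast that chose Nlrc5. All 10 passed the filter on low counts, which left 14592 genes to be tested.

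The tissue was the superior cervical ganglion of C57Bl6/n mice on postnatal day 1, a whole ganglion that holds noradrenergic neurons, glia, vessels and connective tissue. The 4 conditional knockout (cKO) animals were KIF1Bb fl/fl and DBHcre +/-, with Cre recombinase under the promoter of the dopamine beta-hydroxylase gene. The 4 controls, labelled WT, were KIF1Bb fl/fl and DBHcre -/-, so both groups carried the loxP-flanked allele and the controls had no Cre. Cells that never express Dbh should keep Kif1b in both groups.

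Total counts lay between 16214912 and 18114418 per library. Levels are given as CPM, read counts scaled to a common depth with TMM-adjusted library sizes. Kif1b averaged 259.7 ± 52.7 CPM in cKO and 1224 ± 222 CPM in WT (SD, n = 4 each). Summed markers of sympathetic neurons ran from 10927 to 12885 CPM in cKO and 13028 to 14524 CPM in WT, with all 6 genes detected. The sums ran from 207 to 216 CPM in cKO and 122 to 173 CPM in WT for endothelium, from 219 to 305 CPM in cKO and 138 to 157 CPM in WT for mural cells, from 924 to 1131 CPM in cKO and 741 to 981 CPM in WT for glia, from 3807 to 5823 CPM in cKO and 2797 to 3567 CPM in WT for fibroblasts and from 131 to 208 CPM in cKO and 105 to 163 CPM in WT for macrophages. Lymphocyte markers summed to 0.800 to 2.55 CPM in cKO and 0.429 to 0.744 CPM in WT, and none of the 6 passed the filter on low counts.

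Class I molecules show peptides from inside a cell to cytotoxic T cells and natural killer cells. Immunoproteasome subunits cut the peptides, the TAP transporter carries them into the endoplasmic reticulum, tapasin helps to load them, and heavy chain and beta-2-microglobulin carry them to the surface. NLRC5, a protein of the NOD-like receptor family, acts in the nucleus as a coactivator of class I genes, through DNA-bound factors (RFX, CREB or ATF1, and NF-Y) on a promoter module of S, X and Y boxes. Neurons are known for low class I levels.

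Promoter windows from RefSeq on GRCm38.p6, 250 bases before to 50 bases after the start, were matched for 8 of the 10 members, and none was matched for Nlrc5 and Tap2. The windows of H2-K1, H2-D1 and B2m are shown because each holds the same pair of short motifs at the same spacing. Capitals mark TGACG, the core of a CREB or ATF site, and ATTGG, the core of a Y box, with 20 bases between them. H2-K1 is on the minus strand at chr17:34000284-34000583, H2-D1 on the plus strand at chr17:35262844-35263143 and B2m on the plus strand at chr2:122147437-122147736.
H2-K1: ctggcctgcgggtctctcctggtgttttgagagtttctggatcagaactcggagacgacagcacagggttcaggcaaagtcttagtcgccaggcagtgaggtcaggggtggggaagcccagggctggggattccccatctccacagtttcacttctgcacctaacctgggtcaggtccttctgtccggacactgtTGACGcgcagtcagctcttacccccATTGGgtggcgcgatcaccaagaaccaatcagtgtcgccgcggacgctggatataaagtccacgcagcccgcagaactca
H2-D1: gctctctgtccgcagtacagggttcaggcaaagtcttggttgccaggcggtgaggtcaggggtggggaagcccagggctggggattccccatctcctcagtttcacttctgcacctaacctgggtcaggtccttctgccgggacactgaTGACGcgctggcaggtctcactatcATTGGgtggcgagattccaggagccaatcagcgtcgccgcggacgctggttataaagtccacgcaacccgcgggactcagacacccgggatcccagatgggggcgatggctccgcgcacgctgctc
B2m: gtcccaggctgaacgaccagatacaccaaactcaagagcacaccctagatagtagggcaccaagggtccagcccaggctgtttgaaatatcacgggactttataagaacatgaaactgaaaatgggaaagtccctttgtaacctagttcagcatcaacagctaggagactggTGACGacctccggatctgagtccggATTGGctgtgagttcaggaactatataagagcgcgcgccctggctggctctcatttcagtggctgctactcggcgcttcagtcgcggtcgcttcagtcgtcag

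The spaced pair, TGACGNNNNNNNNNNNNNNNNNNNNATTGG on either strand, stood in 31 of 32851 promoter windows (0.0944%). TGACG alone was in 20.8% of the windows and ATTGG alone in 37.4%, and every spaced pair contains both. Of the 20 bases inside the pair, 13 were the same in H2-K1 and H2-D1 and 3 were the same in H2-K1 and B2m. The windows of Tap1, Tapbp, Psmb8, Psmb9 and Psmb10 did not hold the pair at this spacing. Those of Tap1 and Psmb9 held TGACG and ATTGG each on its own, and that of Tapbp held ATTGG. The windows of Tap1 and Psmb9 overlap on opposite strands, and their TGACG and ATTGG are the same sites. Tap1, on the plus strand at chr17:34187306-34187605, is shown for contrast. The spaced pair was chosen after values had been seen, and a match of any motif is a description of the letters.
Tap1: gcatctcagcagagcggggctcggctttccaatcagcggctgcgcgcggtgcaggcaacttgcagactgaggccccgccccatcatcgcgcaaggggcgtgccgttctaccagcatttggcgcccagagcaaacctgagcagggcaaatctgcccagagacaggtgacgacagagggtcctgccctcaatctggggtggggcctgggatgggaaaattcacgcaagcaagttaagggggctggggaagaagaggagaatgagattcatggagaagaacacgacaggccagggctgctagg

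Nlrc5 (chromosome 8, 94434356 to 94527272, plus strand, GRCm38) had 7.09, 5.25, 7.32 and 8.20 CPM in cKO libraries 1 to 4, against 18.5, 23.3, 17.2 and 19.0 CPM in WT libraries 1 to 4. These values rest on 88 to 152 reads per cKO library and 300 to 371 reads per WT library. Every cKO library lay below every WT library. The cKO level was 35.8% of the WT level, -1.48 on the log2 scale with an SE of 0.16, and this is the difference by which the gene was chosen. With 1 library left out it lay between -1.57 and -1.37. In a whole ganglion, fewer cells of a type and less RNA per cell cannot be told apart. The annotated gene overlaps 9330175E14Rik on the opposite strand, which had 1 to 4 reads per library.

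Of 18 annotated genes that start within 250 kb of the Nlrc5 start, 6 were tested. In edgeR's quasi-likelihood test 0 passed an adjusted p below 0.05 and 0 had an unadjusted p below 0.05, and DESeq2 and limma voom called 0 each. Their log2 fold changes lay between -0.18 and 0.11. The nearest tested genes on each side were Herpud1, a gene of the response to endoplasmic reticulum stress, and Cpne2, which encodes a calcium-dependent membrane-binding protein. Herpud1 averaged 54.9 ± 6.90 CPM in cKO and 50.7 ± 6.99 CPM in WT, and Cpne2 averaged 38.1 ± 1.38 CPM in cKO and 39.2 ± 3.15 CPM in WT (SD, n = 4 each).

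Among the 9 other members, the 3 that make the surface complex had negative log2 fold changes, the 3 that carry and load peptides had positive ones, and the 3 immunoproteasome genes were divided. In edgeR's quasi-likelihood test 0 of the 9 passed an adjusted p below 0.05, where 2.72% of all tested genes did (1.12% lower and 1.6% higher in cKO). At an unadjusted edgeR p below 0.05 there were 3, H2-K1, H2-D1 and B2m, where 16.8% of all tested genes were. DESeq2 called 1, H2-K1, where it called 6.95% of all genes with an adjusted p, and limma voom 0, where it called 2.97%. These members were set beside a gene chosen in the same contrast, and nothing is read from the counts. The cKO and WT libraries overlapped in all 9, where they did not overlap in 11.0% of all tested genes (5.02% with cKO lower and 6.0% with cKO higher). The median log2 fold change of the 9 was 0.043, against -0.00062 over all tested genes.

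**Figure D1:**
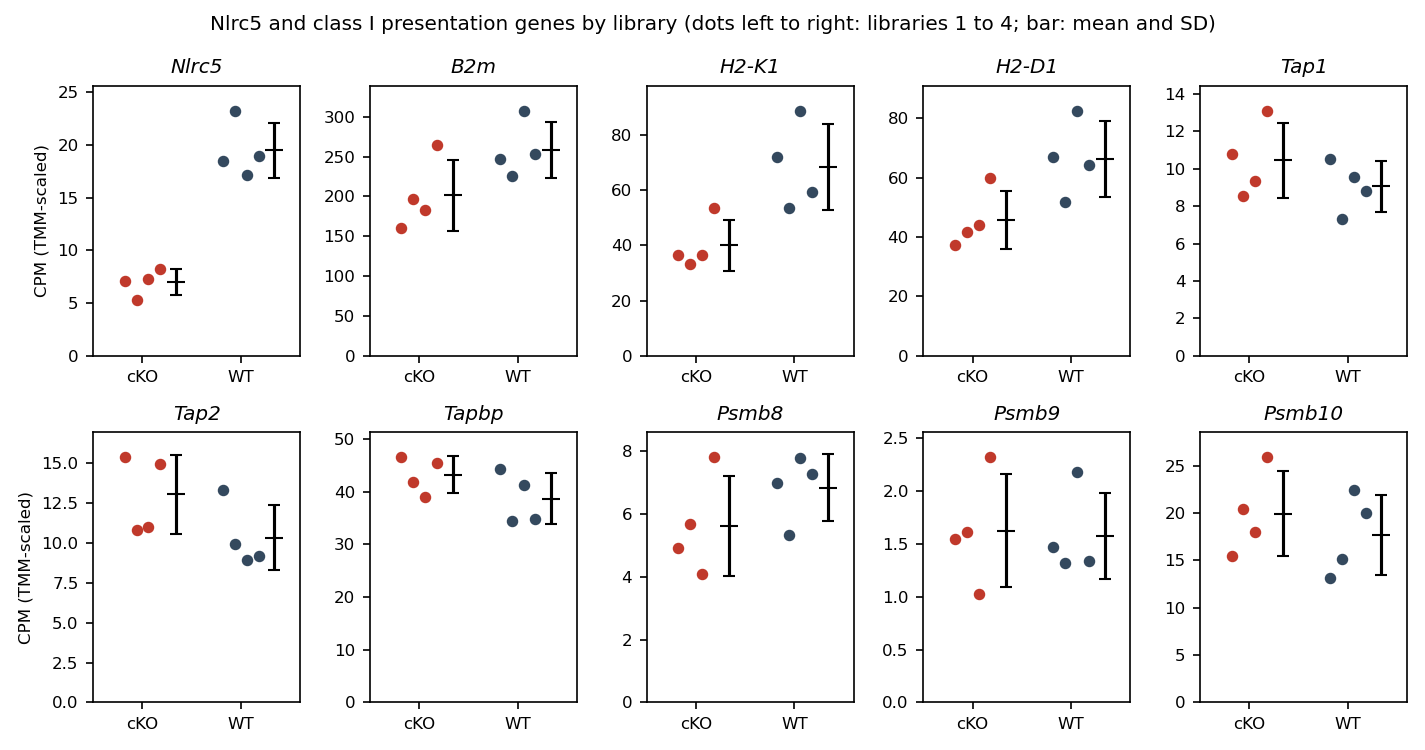
CPM (y axis, from 0, TMM-scaled library sizes) of the 10 genes in the 4 cKO libraries (left) and the 4 WT libraries (right), each dot 1 library in the order 1 to 4, with the mean and SD of each group. Nlrc5 separates the groups, with at most 8.20 CPM in cKO and at least 17.2 CPM in WT. The dot of cKO library 4 is the highest cKO dot for 8 of the 10 genes.

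H2-K1 (chromosome 17, 33996017 to 34000347, minus strand), a classical class I heavy chain that holds the peptide, had 36.5, 33.4, 36.6 and 53.6 CPM in cKO libraries 1 to 4, against 71.8, 53.3, 88.7 and 59.3 CPM in WT libraries 1 to 4. Only cKO library 4 reached into the WT range, where it stood just above WT library 2. The log2 fold change was -0.77 with an SE of 0.19 and a 95% interval of -1.19 to -0.35, not adjusted over genes, and the edgeR adjusted p was 0.0585. Without cKO library 4 it was -0.95 and passed (edgeR adjusted p = 0.0258), and without any 1 of the other 7 it lay between -0.87 and -0.62 and did not pass. The exact two-sided permutation p was 0.0571 over the 70 assignments of libraries to groups, of which 0.0286 is the smallest they can give.

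H2-D1 (chromosome 17, 35262730 to 35267499, plus strand), the other classical heavy chain of this strain, had 37.3, 41.7, 43.9 and 59.8 CPM in cKO libraries 1 to 4, against 66.8, 51.6, 82.5 and 64.2 CPM in WT libraries 1 to 4. Again cKO library 4 alone reached into the WT range. Its log2 fold change was -0.54 with an SE of 0.17, an edgeR adjusted p of 0.139 and an exact permutation p of 0.0571. H2-K1 and H2-D1 together came to 85.7 ± 18.7 CPM in cKO and 135 ± 28.0 CPM in WT (SD, n = 4 each). These genes resemble each other and the H2-Q genes: 9.63% of the 50-base windows of H2-K1 transcripts and 12.8% of those of H2-D1 recurred in transcripts of another gene. The handling of reads that match several genes was not stated, so the split between them is uncertain.

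B2m (chromosome 2, 122147686 to 122153083, plus strand), the light chain that classical heavy chains need, had 160.1, 197, 183 and 265 CPM in cKO libraries 1 to 4, against 247, 225, 308 and 254 CPM in WT libraries 1 to 4. The cKO libraries 1 to 3 lay below all WT libraries, and cKO library 4 lay within the WT range. The log2 fold change was -0.36 with an SE of 0.16 (edgeR adjusted p = 0.284, exact permutation p = 0.114), and -0.52 without cKO library 4. Among the cKO libraries, library 4 was the highest for 8 of the 10 members, H2-K1, H2-D1, B2m and Nlrc5 among them. This library also stood apart in the sum of the 4 sensory neuron markers. The sums were 42.1, 23.05, 30.5 and 137 CPM in cKO libraries 1 to 4, against 40.8, 28.3, 19.0 and 56.8 CPM in WT libraries 1 to 4. Most of the sum in cKO library 4 came from P2rx3 (90.2 CPM) and Scn10a (38.0 CPM). Trpv1 was also highest there among the cKO libraries, at 7.66 CPM, and Prrxl1 was lowest, at 0.917 CPM. Summed interferon-inducible genes were also highest in cKO library 4 among the cKO libraries, at 420.6 CPM. The part of these markers and genes in the levels of H2-K1, H2-D1 and B2m was not tested.

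Within a library, the log2 ratio of H2-K1 to B2m was -2.13, -2.56, -2.32 and -2.31 in cKO libraries 1 to 4, against -1.78, -2.08, -1.79 and -2.10 in WT libraries 1 to 4. Every cKO ratio was below every WT ratio. For H2-D1 to B2m the ratio averaged -2.14 ± 0.076 in cKO and -1.97 ± 0.11 in WT (SD, n = 4 each), and the groups overlapped. The ratios were chosen after values had been seen and were not tested. Summed endothelial, mural and fibroblast markers, given above, were higher in every cKO library than in every WT library, and the summed neuron markers were lower. Their part in the levels of H2-K1, H2-D1 and B2m was not tested.

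**Figure D2:**
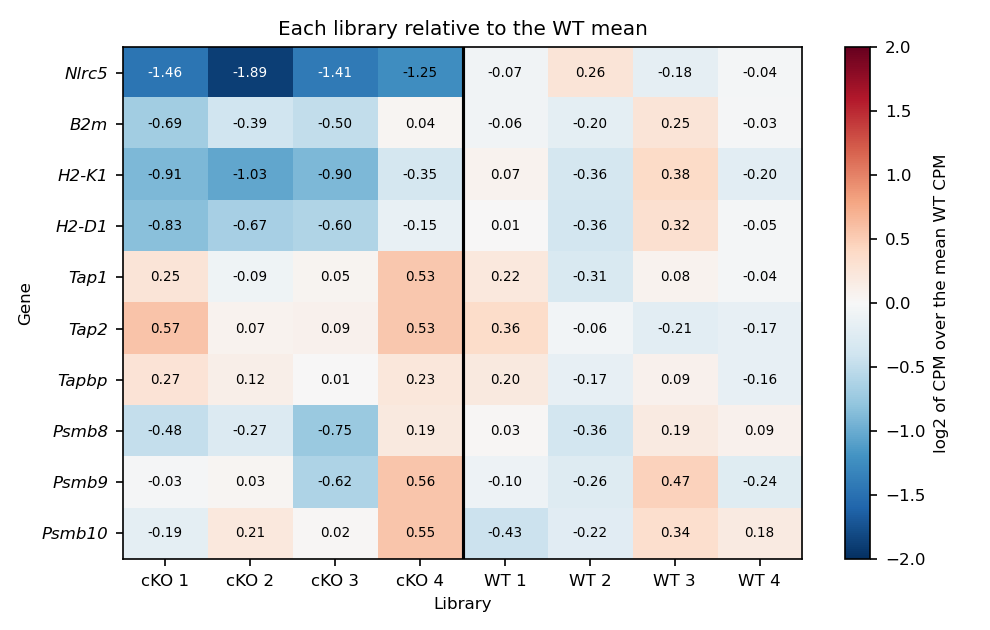
Log2 of each library's CPM over the mean WT CPM of the same gene (colour and printed value), for 10 genes (down the page) in 4 cKO libraries (left of the black line) and 4 WT libraries (right). Nlrc5 lies between -1.89 and -1.25 in cKO libraries, and H2-K1 lies between -1.03 and -0.35.

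Tap1 (chromosome 17, 34187553 to 34197225) and Tap2 (chromosome 17, 34203527 to 34216321), both on the plus strand, encode the subunits of the peptide transporter. Tap1 had 10.8, 8.54, 9.37 and 13.1 CPM in cKO libraries 1 to 4, against 10.5, 7.33, 9.56 and 8.82 CPM in WT libraries 1 to 4. Tap2 had 15.4, 10.8, 11.01 and 14.9 CPM in cKO libraries 1 to 4, against 13.3, 9.90, 8.93 and 9.18 CPM in WT libraries 1 to 4. In both genes cKO libraries 1 and 4 were the higher ones of their group, and the groups overlapped. Tap1 gave 0.21 on the log2 scale (SE 0.17, edgeR adjusted p = 0.631), with a 95% interval of -0.17 to 0.59. Tap2 gave 0.34 on the log2 scale (SE 0.18, edgeR adjusted p = 0.398), with a 95% interval of -0.062 to 0.73. Tapbp (chromosome 17, 33915899 to 33929292), the gene of tapasin, had 46.6, 41.9, 38.9 and 45.4 CPM in cKO libraries 1 to 4, against 44.3, 34.5, 41.2 and 34.7 CPM in WT libraries 1 to 4. The groups overlapped, at 0.16 on the log2 scale (SE 0.12, edgeR adjusted p = 0.572). Tapbp overlaps Zbtb22 on the same strand and Tap1 overlaps Psmb9 on the opposite one.

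Psmb8 (chromosome 17, 34197721 to 34201454), Psmb9 (chromosome 17, 34181987 to 34187764) and Psmb10 (chromosome 8, 105935735 to 105938444) encode the catalytic subunits that replace Psmb5, Psmb6 and Psmb7 in the immunoproteasome. Psmb8 had 4.91, 5.67, 4.09 and 7.82 CPM in cKO libraries 1 to 4, against 6.99, 5.33, 7.79 and 7.30 CPM in WT libraries 1 to 4. Its cKO values fell on both sides of the WT values, with -0.28 on the log2 scale (SE 0.21, edgeR adjusted p = 0.587). Psmb9 had 1.54, 1.61, 1.02 and 2.32 CPM in cKO libraries 1 to 4, against 1.47, 1.32, 2.18 and 1.34 CPM in WT libraries 1 to 4. It was the lowest member, at 18 to 43 reads per cKO library and 21 to 38 reads per WT library. Its difference of 0.043 on the log2 scale (SE 0.28, edgeR adjusted p = 0.973) turned negative without cKO 4 (-0.18), without WT 2 (-0.034) or without WT 4 (-0.030). Psmb10 had 15.5, 20.4, 17.9 and 25.9 CPM in cKO libraries 1 to 4, against 13.1, 15.2, 22.4 and 19.9 CPM in WT libraries 1 to 4. The groups overlapped, at 0.17 on the log2 scale (SE 0.20, edgeR adjusted p = 0.761).

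Each immunoproteasome gene had fewer counts than the standard subunit it replaces, in every library. The log2 ratio of Psmb8 to Psmb5 averaged -3.57 ± 0.29 in cKO and -3.24 ± 0.21 in WT, that of Psmb9 to Psmb6 -6.97 ± 0.44 in cKO and -6.86 ± 0.29 in WT, and that of Psmb10 to Psmb7 -3.51 ± 0.14 in cKO and -3.69 ± 0.12 in WT (SD, n = 4 each). The groups overlapped in all of these ratios. Of the 14 standard core particle genes, 0 passed in edgeR, 0 had an unadjusted p below 0.05, and 0 passed in DESeq2 or limma voom, with log2 fold changes of -0.066 to 0.13. The 3 with the smallest p were Psmb6 at 0.13 (SE 0.17), Psma6 at 0.11 (SE 0.18) and Psmb2 at 0.094 (SE 0.22). Summed over the 14 genes, cKO 4 was the highest cKO library and WT 3 the highest WT library, as they were for B2m, H2-K1, H2-D1, Psmb8, Psmb9 and Psmb10. The sums were 1407 to 2363 CPM in cKO and 1448 to 2279 CPM in WT, and their part in the members' values was not tested.

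**Figure D3:**
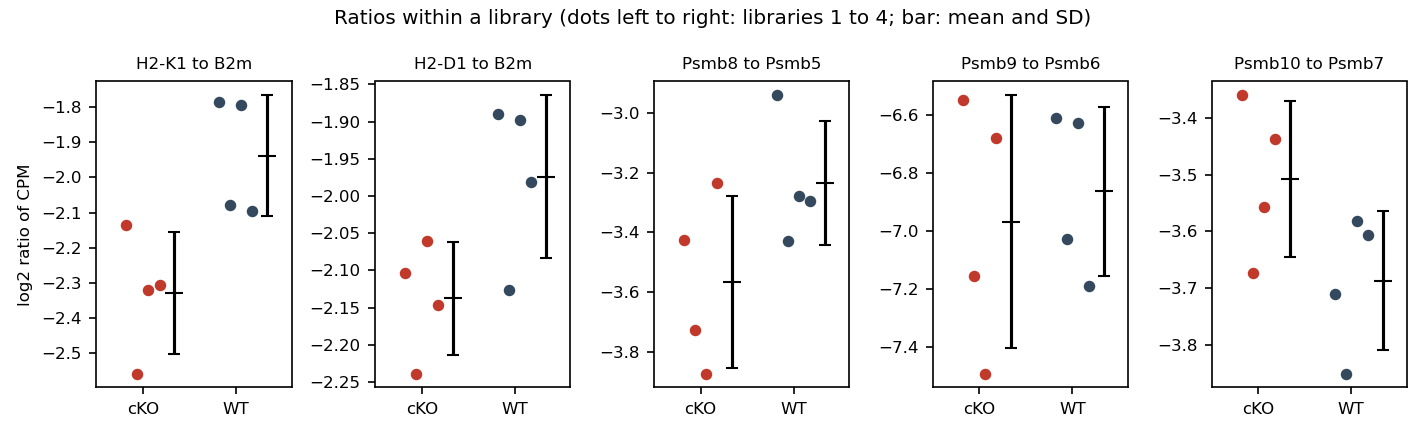
Log2 ratios of CPM (y axis, which does not start at 0) of the heavy chains to B2m and of the immunoproteasome subunits to their standard counterparts, per library (dots), with mean and SD, for cKO (left) and WT (right). For H2-K1 to B2m the highest cKO ratio is -2.13 and the lowest WT ratio -2.10.

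Per kilobase of annotated exon, in CPM per kilobase (RPKM), B2m stood above the rest, at 234 ± 52.4 RPKM in cKO and 301 ± 40.6 RPKM in WT (SD, n = 4 each). H2-D1 followed at 17.7 ± 3.81 RPKM in cKO and 25.7 ± 4.92 RPKM in WT and H2-K1 at 13.6 ± 3.12 RPKM in cKO and 23.2 ± 5.32 RPKM in WT, with ranges that overlapped in each group. Tapbp had 11.9 ± 0.956 RPKM in cKO and 10.7 ± 1.35 RPKM in WT and Psmb10 11.7 ± 2.61 RPKM in cKO and 10.4 ± 2.50 RPKM in WT, and these overlapped too. The range of H2-K1 met that of Tapbp in cKO libraries and lay above it in WT libraries. Tap2 had 3.45 ± 0.650 RPKM in cKO and 2.73 ± 0.535 RPKM in WT, Tap1 1.91 ± 0.366 RPKM in cKO and 1.66 ± 0.247 RPKM in WT and Psmb8 1.66 ± 0.474 RPKM in cKO and 2.03 ± 0.316 RPKM in WT. Nlrc5 had 0.820 ± 0.146 RPKM in cKO and 2.29 ± 0.310 RPKM in WT, which placed it between Psmb8 and Psmb9 in cKO and between Tap2 and Psmb8 in WT. In cKO its range met that of Psmb9 and not that of Psmb8, and in WT it met those of Tap2 and Psmb8. Psmb9 was lowest, at 0.444 ± 0.146 RPKM in cKO and 0.430 ± 0.111 RPKM in WT. Exons of all annotated transcripts were joined for these lengths.

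Of 27 other class I heavy chain genes, 9 were tested, with a median log2 fold change of 0.42. In edgeR 2 rose (Mr1 and Fcgrt) and 0 fell, where 1.6% of all tested genes rose and 1.12% fell. At an unadjusted edgeR p below 0.05 there were 5, against 16.8% of all tested genes. Of these, Mr1, Fcgrt, H2-T23 and Hfe had positive values and H2-T24 a negative one. DESeq2 called 2, against 6.95% of all genes, and limma voom 2, against 2.97%. Over the 4 lists around the pathway, 2 of 59 tested genes passed (3.39%, against 2.72% of all genes). Mr1, which presents vitamin B metabolites to innate-like T cells, had 13.5, 15.6, 12.4 and 12.1 CPM in cKO libraries 1 to 4, against 7.78, 7.02, 7.33 and 8.45 CPM in WT libraries 1 to 4. Every cKO library was above every WT library, at 0.81 on the log2 scale (SE 0.13, edgeR adjusted p = 0.0145). The call of Mr1 was lost without WT 2 (edgeR adjusted p = 0.0701) or without WT 4 (edgeR adjusted p = 0.05005). Fcgrt, the neonatal Fc receptor for immunoglobulin G, had 48.7, 47.8, 48.5 and 47.0 CPM in cKO libraries 1 to 4, against 34.6, 23.004, 35.6 and 24.9 CPM in WT libraries 1 to 4. Every cKO library was again above every WT library, at 0.70 on the log2 scale (SE 0.15, edgeR adjusted p = 0.0358). Its edgeR adjusted p was 0.0685, 0.0805, 0.0983 and 0.0598 without cKO 1 to 4 in turn, 0.109 without WT 2 and 0.121 without WT 4. The endothelial markers Pecam1 (0.54, SE 0.092) and Tek (0.70, SE 0.15) rose as well, and their part in the Fcgrt level was not tested.

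H2-T23, which encodes the Qa-1 antigen, had 0.57 (SE 0.20) on the log2 scale, and H2-Q4 had 0.46 (SE 0.22). H2-T24 had -0.55 (SE 0.23) and H2-M3, which presents formylated peptides, -0.47 (SE 0.22). None of these passed. The promoter window of H2-M3 also held the spaced TGACG and ATTGG pair. The 4 tested class I genes with the pair, H2-K1, H2-D1, B2m and H2-M3, had log2 fold changes between -0.77 and -0.36. The 19 other tested genes with it had values between -0.39 and 0.46, 10 negative and 9 positive. The motif and this split into class I and other genes were chosen after values had been seen. H2-M3 was also named after its value was seen. The negative values of H2-K1, H2-D1, B2m and H2-M3 are therefore no support for the motif. H2-T24, at -0.55, was not among the genes with the pair. In edgeR 0 of the 23 tested genes with the pair passed, where 2.72% of all tested genes did. At an unadjusted edgeR p below 0.05 there were 5, where 16.8% of all tested genes were. These 5 were H2-K1, H2-D1, B2m, Calu and Kcnq1ot1. DESeq2 called 1, H2-K1, against 6.95% of all genes, and limma voom 0, against 2.97%. H2-Q6, H2-Q9, H2-T9, H2-M2 and H2-M10.1 had no read in any library, where 3 reads would be 0.162 to 0.188 CPM, for counting error only.

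**Figure D4:**
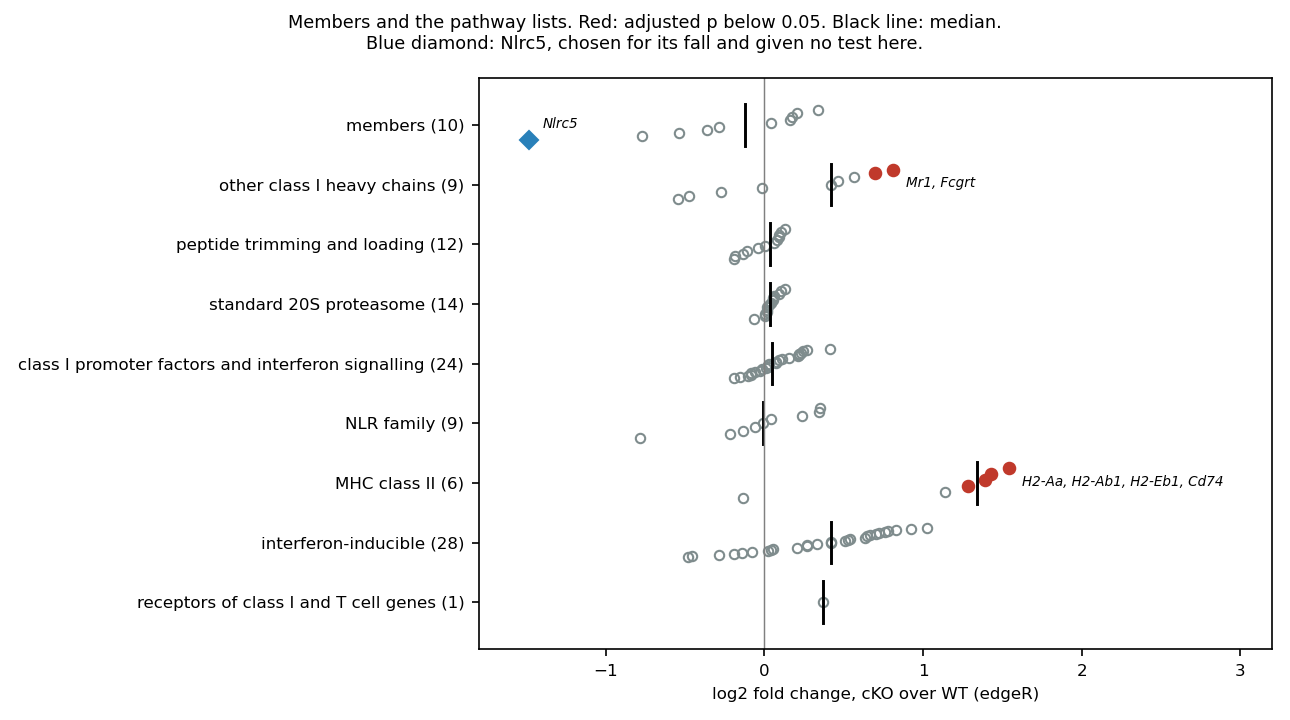
Log2 fold change of cKO over WT (x axis) for each tested gene of the members and the lists (down the page), with each list's median as a black line. Nlrc5 is the blue diamond at -1.48, and red dots are genes with an edgeR adjusted p below 0.05 (Fcgrt, Mr1 and 4 class II genes, all at positive values).

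Of 12 tested genes that trim and load peptides, 0 passed in edgeR, 0 had an unadjusted p below 0.05, and 0 passed in DESeq2 or limma voom. Their log2 fold changes were -0.19 to 0.13. The 3 with the smallest p were Npepps, a cytosolic aminopeptidase, at -0.19 (SE 0.10), Sec61a1, a translocon channel, at 0.091 (SE 0.086), and Tapbpl, a tapasin relative that edits peptides, at -0.14 (SE 0.13).

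Of 24 tested genes for promoter factors and interferon signalling, 0 passed in edgeR, against 2.72% of all tested genes. At an unadjusted edgeR p below 0.05 there were 2, Ezh2 and Ifngr1, against 16.8% of all tested genes. In DESeq2 or limma voom 0 passed. The RFX subunit genes Rfx5, Rfxap and Rfxank had 0.24 (SE 0.16), -0.086 (SE 0.11) and 0.075 (SE 0.14) on the log2 scale. Ifngr1, a chain of the interferon gamma receptor, had 0.27 (SE 0.095), Ifnar2, of the type I receptor, 0.21 (SE 0.12), and Ezh2, a histone methyltransferase, 0.42 (SE 0.15). Ifnb1 had no read and Ifng 1 read over the 8 libraries.

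Of 17 genes of NOD-like receptors and relatives, 9 were tested. In edgeR 0 passed, against 2.72% of all tested genes. At an unadjusted edgeR p below 0.05 there were 3 (Nlrx1, Nod1 and Nlrp6), against 16.8% of all tested genes. DESeq2 and limma voom called 0. Nlrx1, a mitochondrial member, averaged 35.6 ± 1.499 CPM in cKO and 30.3 ± 1.82 CPM in WT, Nod1, a sensor of bacterial cell walls, 10.6 ± 0.981 CPM in cKO and 8.30 ± 1.08 CPM in WT, and Nlrp6 21.6 ± 3.44 CPM in cKO and 17.0 ± 1.42 CPM in WT (SD, n = 4 each). Ciita, the class II counterpart of Nlrc5, was under the filter on low counts, at 0.470 ± 0.114 CPM in cKO and 0.650 ± 0.136 CPM in WT.

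Of 6 tested class II genes, 4 rose and 0 fell in edgeR, where 1.6% of all tested genes rose and 1.12% fell. The 4 were H2-Ab1, H2-Aa and H2-Eb1, chains of class II molecules, and Cd74, their invariant chain. H2-Ab1 had 9.88, 7.46, 5.85 and 8.09 CPM in cKO libraries 1 to 4, against 3.00, 2.01, 3.21 and 2.49 CPM in WT libraries 1 to 4. Every cKO library was above every WT library in all 4 and in H2-DMb1, where this held for 6.0% of all tested genes. At an unadjusted edgeR p below 0.05 there were 5, the 4 and H2-DMb1, against 16.8% of all tested genes. DESeq2 called 4, against 6.95% of all genes, and limma voom 4, against 2.97%. The 2 tested genes that did not pass were H2-DMb1 at 1.14 (SE 0.35) and H2-DMa at -0.14 (SE 0.13) on the log2 scale. The log2 fold changes were 1.54 (SE 0.21) for H2-Ab1, 1.43 (SE 0.23) for Cd74, 1.39 (SE 0.22) for H2-Aa and 1.29 (SE 0.26) for H2-Eb1. H2-Ab1 passed with any 1 library left out. The edgeR adjusted p of Cd74 was 0.0561 without WT 4, that of H2-Aa 0.0626 without WT 2 and 0.0561 without WT 4. For H2-Eb1 it was 0.0596, 0.0716 and 0.0569 without cKO 1, 2 and 4, 0.112 without WT 2 and 0.103 without WT 4. The part of the lymphocyte and macrophage marker sums given above in these levels was not tested.

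Of 28 tested interferon-inducible genes, among them Psmb8, Psmb9 and Tap1, 0 passed in edgeR and 11 had an unadjusted p below 0.05, against 16.8% of all tested genes. Of the 28 log2 fold changes, 22 were positive and 6 negative, with a median of 0.42. Over all tested genes 7283 were positive and 7309 negative. Among the 11, Trim25 and Stat2 had negative values and the others positive ones. DESeq2 called 4, against 6.95% of all genes, and limma voom 0, against 2.97%. Trim25, a ubiquitin ligase of antiviral signalling, had -0.48 (SE 0.12) on the log2 scale and an edgeR adjusted p of 0.0540, and passed without cKO 1 (0.0312) and in DESeq2 (0.00334). Stat2, a subunit of an interferon-activated factor, had -0.46 (SE 0.11) and an edgeR adjusted p of 0.0554, and passed without WT 1 (0.0353) and in DESeq2 (0.00445). Xaf1 had 0.92 (SE 0.23) and an edgeR adjusted p of 0.0619, and passed in DESeq2 (0.0117). Of 7 genes of class I receptors and T cells in the table, 1 was tested, Lilrb4, an inhibitory receptor of myeloid cells, which averaged 2.17 ± 1.05 CPM in cKO and 1.67 ± 0.692 CPM in WT (SD, n = 4 each) and did not pass, with 0 at an unadjusted p below 0.05 in edgeR and 0 in DESeq2 or limma voom.

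Among 11731 genes with a mean of 5 CPM or more, those nearest to Nlrc5 in centred log2 CPM over the 8 libraries were Scube1, Prune2, Fam196b, Synm and Pcdh10. Their root mean square distances from Nlrc5 were 0.0984, 0.150, 0.171, 0.193 and 0.212 on the log2 scale. Scube1, which encodes a protein with EGF-like repeats, had 60.4, 42.8, 65.3 and 63.3 CPM in cKO libraries 1 to 4, against 156, 163, 146 and 158 CPM in WT libraries 1 to 4. As for Nlrc5, cKO 2 was the lowest cKO library, WT 2 the highest WT library and WT 3 the lowest. Prune2 averaged 220.1 ± 37.8 CPM in cKO and 509.7 ± 69.5 CPM in WT, Synm, an intermediate filament gene, 41.4 ± 10.8 CPM in cKO and 99.3 ± 7.98 CPM in WT, Pcdh10, a protocadherin, 97.2 ± 11.1 CPM in cKO and 209 ± 14.2 CPM in WT, and Fam196b 3.83 ± 0.269 CPM in cKO and 11.1 ± 0.514 CPM in WT (SD, n = 4 each). Fam196b overlaps Dock2 on the opposite strand. Likeness to Nlrc5 takes in both its difference between the groups and its pattern over libraries within them. These differences and the library order shared with Scube1 therefore follow from the choice and have no test.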

How the data were processed

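PolyA RNA of 8 ganglion samples, each from a separate animal, was sequenced, per the labels' protocols. The deposited table holds raw read counts by gene symbol. The authors' alignment used STAR and the mm10 build, as the submitters' processing notes name them, and the counting program, annotation and strand setting were not stated. EdgeR 4.0.16 in R 4.3.3 tested cKO against WT (TMM scaling, filterByExpr, robust quasi-likelihood fit), with Benjamini-Hochberg adjustment over 14592 genes and a threshold of 0.05. Each SE was taken as the log2 fold change, without its sign, over the root of its F statistic. Libraries of 1 group differed beyond counting noise (chi-square per gene 7.72 to 55.5), and the labels name no batch. Lengths, overlaps and coordinates are from GENCODE vM21 on GRCm38, the mm10 assembly. Alternatives were other scalings and filters, DESeq2 1.42.0, limma 3.58.1 (voom), a replicate block, and leaving out libraries. Members, 8 gene lists and 10 marker lists were chosen with earlier results of these data known. Named genes are all members, the passing genes of each list or else the 3 with the smallest p, genes near Nlrc5 and the 5 nearest profiles. H2-T23, H2-Q4, H2-T24, H2-M3, Hfe, H2-DMb1, H2-DMa, Ciita, Pecam1, Tek and the RFX subunits were named outside that rule after their values were seen. 1 gene of these lists is not reported here.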

Additional observations from a re-analysis of the deposited data

Results flagged for a closer look

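H2-K1 had 53.6 CPM in cKO library 4 and 36.6 CPM in the next highest cKO library, so that 1 library stood far from the other 3 of its group. Ifngr1 had 45.4 CPM in cKO library 4 and 41.1 CPM in the next highest cKO library, and stood apart in the same way. The summed sensory neuron markers were also highest in this library, at 137 CPM, against 42.1 CPM in the next highest cKO library. Summed interferon-inducible genes were highest there too, at 420.6 CPM, against 392.2 CPM in the next highest cKO library. The sums of sympathetic neuron markers, glial markers and standard proteasome genes were highest in cKO library 4 of its group as well. The part of any of these sums in the H2-K1 and Ifngr1 values was not tested. The H2-K1 and Ifngr1 values were 2 of 64 groups of 4 libraries examined, and chance alone marks about 1 in 20 groups.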

How the results depend on the processing

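Over all genes edgeR called 397, against 687 with a replicate block, 1012 with the Wald test of DESeq2, and 74 to 514 with 1 library left out (74 without WT 4, 79 without WT 2, 137 without cKO 3, 147 without cKO 2 and 249 without WT 3). With library size alone as the scaling, 343 were higher and 145 lower in cKO, against 234 higher and 163 lower with TMM. Of the 9 members other than Nlrc5, 0 were called, and 1, H2-K1, with a replicate block (adjusted p = 0.0409), with DESeq2 (0.00476) and without cKO 4. Counted with Nlrc5, which was chosen for its fall and adds nothing to these counts as support, they are 1 and 2. Of the 59 pathway genes 2 were called, 0 to 2 with 1 library left out, and 3 with a replicate block, which added Ezh2 (adjusted p = 0.0421). Trim25 also passed with the block (0.0357). The replicate numbers did not pair the samples throughout. In deviations from the group means, libraries of the same number correlated at 0.72, 0.35, -0.30 and 0.27 for numbers 1 to 4. Of the 4 cKO libraries, 1, cKO 1, was most like the WT library of its number. The median log2 fold change of the 9 members other than Nlrc5, 0.043, lay between -0.18 and 0.20 with 1 library left out. Over 32 named genes, 475 of 512 values kept their direction and side of the threshold, 17 lost a call, 12 gained one and 8 changed sign. The 475 take in 16 of 16 values of Nlrc5, which was chosen for its fall and adds nothing as support. The sign changes came with 1 library left out: Psmb9 lay between -0.18 and 0.24, Lilrb4 between -0.035 and 0.65, Psma6 between -0.0055 and 0.23 and Psmb2 between -0.052 and 0.23. A fit without both libraries numbered 1, added after the data had been seen, called 437 genes, lost H2-Eb1 (adjusted p = 0.0598) and gained Stat2 (0.0252) and Trim25 (0.0420). The cause was not tested.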
